A study of Mus musculus with 2 samples.

Results

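The S100 genes described here are 10 members of the family of small calcium-binding proteins: S100a1, S100a3, S100a4, S100a5, S100a6, S100a8, S100a9, S100a10, S100a11 and S100a13. They were chosen by gene symbol, and each symbol led to 1 gene identifier, so that 10 of the 55536 annotated genes of the deposited gene table were followed. Total RNA was sequenced from neutrophils of the spleen, primary cells and not a cell line, as a single group of 2 libraries called replicate 1 and replicate 2. The mice were B6CASTF1/J, F1 hybrids bred from C57BL/6 mothers and CAST/EiJ fathers, and were male, virgin and 65 days old, with no treatment named. Each library took 300 ng of RNA and carries ERCC spike-ins. One donor identifier is given for both, so they may not be separate animals, and some of the difference between them may be technical. The p-values below cover counting error only and measure no spread between animals or libraries. There is no second condition, and what follows describes levels in these neutrophils and how far the libraries differed.

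S100 proteins carry a pair of EF-hands, helix-loop-helix folds whose loop holds a calcium ion, and most of them work as dimers that expose a binding face for a target protein once calcium is bound. S100a8 and S100a9 pair with each other as calprotectin, which fills much of the neutrophil cytosol, withholds zinc and manganese from microbes when it is released, and signals through receptors such as Tlr4 and Ager. The other members act mostly inside cells, on annexins, on myosin, on ubiquitin ligase adaptors and on the release of proteins that lack a signal peptide.

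Levels are the deposited TPM, a scale per length that sums to a fixed total in each library, noncoding entries included, and they are given with the mean ± SD of n = 2. The depth was 18387963 expected counts for replicate 1 and 18090108 for replicate 2. Protein-coding genes took 32.8% of TPM in replicate 1 and 45.4% in replicate 2, so the same gene can differ more in TPM than in counts. The gene table has the layout of RSEM, and a second quantification has the layout of kallisto, and these names are used below. All 11 markers on the neutrophil list, S100a8 and S100a9 among them, stood at 1 TPM or more in both libraries, and the lowest of them, Cxcr2, was at 114 and 174 TPM. The T cell and NK cell lists had 0 of 5 and 0 of 4 markers at that level. The monocyte and macrophage list had 5 of 8, led by Ly6c2 at 253 and 372 TPM, and its summed level was 369 TPM in replicate 1 and 518 TPM in replicate 2. In bulk RNA, fewer cells of a type and less RNA per cell cannot be told apart.

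All 10 genes lie on mouse chromosome 3 (mm10, GENCODE M21), in blocks of 8 and 2 genes. S100a1 (chr3:90511034-90514392), S100a13 (chr3:90514435-90524581), S100a3 (chr3:90560578-90602702), S100a4 (chr3:90603771-90606045), S100a5 (chr3:90608523-90611780), S100a6 (chr3:90612882-90624181), S100a8 (chr3:90668978-90670035) and S100a9 (chr3:90692632-90695721) form a block of 185 kb. S100a11 (chr3:93520488-93526287) and S100a10 (chr3:93555080-93564643) lie 2.82 Mb further along in a block of 44.2 kb. S100a1 and S100a9 are on the minus strand and the other 8 are on the plus strand. S100a1 and S100a13 are transcribed away from each other from annotated starts that are 43 bases apart.

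The loop of the second EF-hand was located in all 10 members. Its coding sequence is shown for the 6 members with the highest levels because it sets S100a10 apart by sequence. Each stretch of 36 bases encodes the 12 positions of the loop in the reference genome, and capitals mark the codons of positions 1, 3, 5 and 12, whose side chains usually hold the calcium ion.
S100a9, chr3:90692851-90692886, minus strand: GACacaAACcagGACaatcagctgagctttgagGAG
S100a8, chr3:90669872-90669907, plus strand: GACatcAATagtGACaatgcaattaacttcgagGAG
S100a11, chr3:93526037-93526072, plus strand: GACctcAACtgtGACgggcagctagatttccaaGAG
S100a6, chr3:90614233-90614268, plus strand: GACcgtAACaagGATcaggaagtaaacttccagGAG
S100a4, chr3:90605785-90605820, plus strand: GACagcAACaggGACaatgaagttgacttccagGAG
S100a10, chr3:93564288-93564323, plus strand: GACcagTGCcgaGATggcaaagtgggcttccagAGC
Position 1 was GAC or GAT, the codons of aspartate, in 10 of 10 members. Position 12 was GAG or GAA, the codons of glutamate, in 9 of 10. S100a10 has AGC there and TGC at position 3, which are codons of serine and cysteine, and S100a10 is known as the member that no longer binds calcium. The loop was found by an EF-hand pattern in 6 members and by alignment to S100a4 in the other 4, and in all 10 it lies within 1 coding exon. The pattern itself demands aspartate at position 1 and aspartate or glutamate at position 12. At position 1 only the other 4 members were therefore free to differ, and the counts above do not measure conservation. After translation, the 45 pairs of members had a median identity of 35.5%, from 23.5% for S100a11 and S100a3 to 51.7% for S100a6 and S100a5. Neither S100a8 nor S100a9 shares a run of 50 bases with a transcript of any gene outside the 10.

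The levels of the 10 genes covered more than 4 orders of magnitude, from S100a9 as the highest protein-coding gene of each library down to S100a5 with 4 and 1 counts. S100a9 was at 13196 TPM in replicate 1 and 27792 TPM in replicate 2 (20494 ± 10320), and S100a8 was at 8892 and 22882 TPM (15887 ± 9892). They ranked first and second of 22028 protein-coding genes in both libraries. Together they held 93.2% of the TPM of the 10 genes in replicate 1 and 94.8% in replicate 2.

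**Figure D1:**
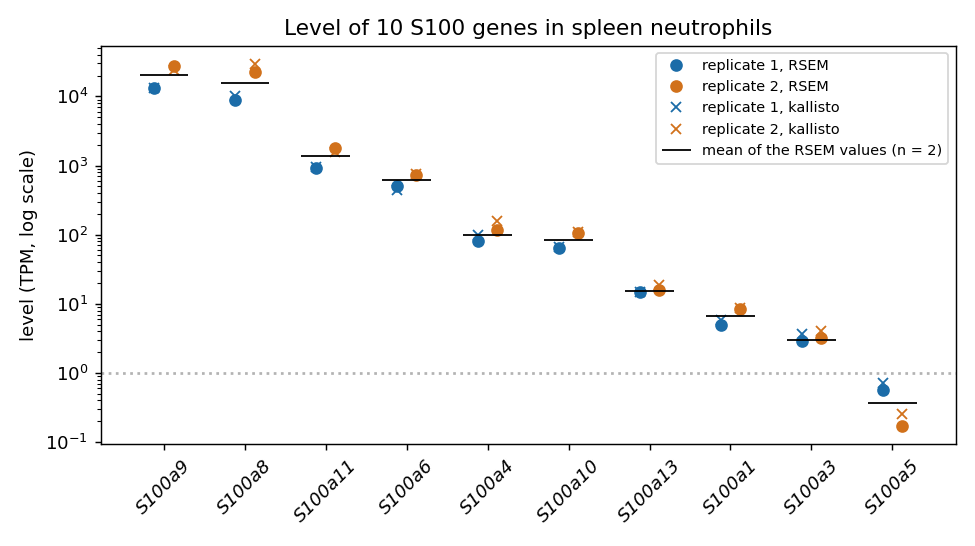
Level of each S100 gene in TPM on a log axis, with circles for RSEM and crosses for kallisto, blue for replicate 1 and orange for replicate 2. The black line is the mean of both RSEM values, and the dotted line marks 1 TPM, below which only S100a5 lies.

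S100a11, which binds annexin A1 and takes part in membrane repair, came next at 932 and 1788 TPM (1360 ± 605) and ranked 18 in replicate 1 and 12 in replicate 2. S100a6, known as calcyclin and a partner of the calcyclin-binding protein Cacybp, was at 502 and 732 TPM (617 ± 162), with ranks of 50 and 44. Both were among the 551 protein-coding genes at 100 TPM or more in both libraries, a level reached by 4 of 10 S100 genes and by 2.50% of protein-coding genes.

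S100a4, which binds the heavy chain of nonmuscle myosin and is linked to cell movement, was at 80.8 and 117 TPM (98.7 ± 25.4). S100a10, the partner of annexin A2 in a complex at the plasma membrane, was at 64.0 and 105 TPM (84.5 ± 28.9). These were the closest neighbours in the order: S100a4 was higher than S100a10 by 0.34 on the log2 scale in replicate 1 and by 0.15 in replicate 2.

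The remaining members were low. S100a13, which helps release proteins without a signal peptide, was at 14.7 and 15.8 TPM (15.2 ± 0.764). S100a1, best known from heart and skeletal muscle, was at 5.01 and 8.49 TPM (6.75 ± 2.46). S100a3, best known from the hair cuticle, was at 2.85 and 3.18 TPM (3.02 ± 0.233) from 38 and 37 counts. S100a5 was at 0.570 and 0.170 TPM from 4 and 1 counts, and it was the 1 member under 1 TPM in both libraries.

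A total of 9 of 10 members reached 1 TPM in both libraries, beside 43.3% of protein-coding genes. The median level over the 10 was 72.4 TPM in replicate 1 and 111 TPM in replicate 2, beside 0.330 and 0.400 TPM over all protein-coding genes. The list was drawn up with the levels of these libraries known, so neither figure stands as evidence about the family. Every neighbour in the order kept its place in both libraries, with a mean log2 difference larger than its SD in each of the 9 neighbouring steps. The largest step was from S100a8 to S100a11 (3.47 ± 0.30 on the log2 scale) and the smallest was from S100a4 to S100a10 (0.24 ± 0.129).

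S100 transcripts are short, so the family weighs more per length than in reads. Of the TPM of protein-coding genes the 10 took 7.22% (replicate 1) and 11.8% (replicate 2), a mean of 9.49% ± 3.22, while they took 1.56% and 2.76% of protein-coding expected counts. S100a8 and S100a9 alone made up 6.73% and 11.2% of protein-coding TPM. The other 8 took 0.488% and 0.610%, of which S100a11 held 58.2% and 64.6%.

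S100a9 stood above S100a8 by 0.57 on the log2 scale of TPM in replicate 1 and by 0.28 in replicate 2 (0.43 ± 0.204), a ratio of 1.48 and 1.21. This order depended on how reads were assigned. By kallisto the log2 ratio was 0.36 in replicate 1 and -0.29 in replicate 2, where S100a8 was at 29422 TPM and S100a9 at 24055 TPM. The mean by kallisto was 0.037 ± 0.463, so the levels of the calprotectin subunits could not be ordered by that table.

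Differences between the libraries were tested for each gene on rounded expected counts, by an exact binomial test (two-sided) given TMM effective library sizes. P-values were adjusted by Benjamini-Hochberg over the 15118 genes that held at least 10 counts when both libraries were summed. Each side is 1 library, so the test compares these libraries and not conditions, and it covers counting error only. Of the 9 S100 genes tested, 6 were higher in replicate 2 (S100a9, S100a8, S100a11, S100a6, S100a4 and S100a10), 0 were higher in replicate 1, and 3 were not called (S100a13, S100a1 and S100a3). Over all genes tested, 17.0% were called higher in replicate 2 and 15.0% higher in replicate 1. The median log2 ratio of replicate 1 over replicate 2 was -0.47 over the 9 members and -0.001 over all genes tested. Highly expressed genes leaned to replicate 2 as well. The median was -0.19 over the 638 protein-coding genes with a mean of 100 TPM or more, S100a9, S100a8, S100a11 and S100a6 among them.

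S100a8 differed most among the members. Its counts were 74944 in replicate 1 and 164142 in replicate 2, a log2 ratio of -1.11 with a 95% interval of -1.13 to -1.10, or 2.16-fold higher in replicate 2. It was the 1 member past 2-fold, a bound passed in that direction by 2.86% of all genes tested. S100a9, with 118915 and 213614 counts, was 1.78-fold higher in replicate 2 (log2 ratio -0.83, interval -0.84 to -0.82). The intervals of the subunits did not overlap.

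S100a11 had 8360 and 13652 counts and was 1.61-fold higher in replicate 2 (log2 ratio -0.69, interval -0.73 to -0.65). S100a10, with 813 and 1136 counts, was 1.38-fold higher (log2 ratio -0.47, interval -0.60 to -0.33). S100a6 had 3800 and 4787 counts and was 1.25-fold higher (log2 ratio -0.32, interval -0.38 to -0.25). S100a4 had 690 and 858 counts and was 1.23-fold higher (log2 ratio -0.30, interval -0.44 to -0.15, exact binomial adjusted p = 0.000333). By kallisto counts S100a4 was no longer called (log2 ratio -0.17, adjusted p = 0.101 by the same exact test), and the other 5 calls remained.

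The members that were not called had the fewest counts of the 9 tested. S100a1, with 63 and 91 counts, had a log2 ratio of -0.51 (interval -1.0 to -0.03, exact binomial adjusted p = 0.0825). S100a13, with 197 and 180 counts, had 0.15 (interval -0.15 to 0.45, exact binomial adjusted p = 0.502). The interval of S100a13 lay above the log2 ratios of all 6 called members. S100a3, with 38 and 37 counts, had 0.06 (interval -0.64 to 0.75, exact binomial adjusted p = 0.964). A difference of S100a3 within that interval was not detectable at this depth.

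**Figure D2:**
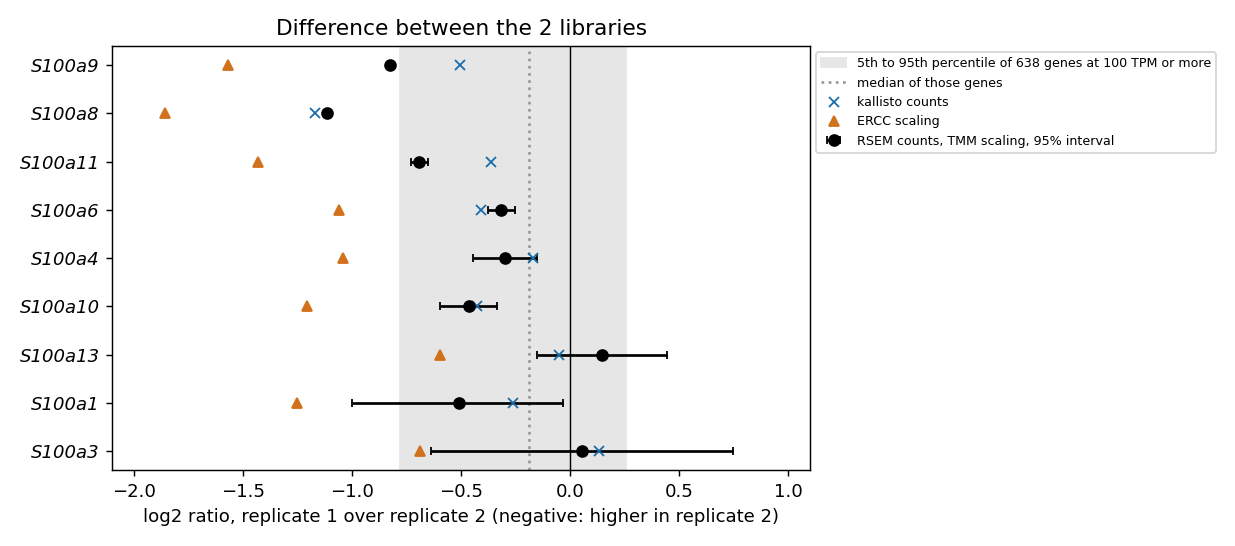
Log2 ratio of replicate 1 over replicate 2 for the 9 S100 genes tested, as black points with 95% intervals for RSEM counts with TMM scaling, crosses for kallisto counts and triangles for ERCC scaling. The grey band spans the 5th to 95th percentile of 638 protein-coding genes at 100 TPM or more, and S100a8 and S100a9 lie to its left, at -1.11 and -0.83, with the kallisto value of S100a9 inside it at -0.50.

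Scaling by the ERCC spike-ins moved the median of all genes to -0.74, with 77771 ERCC counts in replicate 1 and 47031 in replicate 2. On that scale 8 of 9 members were called higher in replicate 2, S100a1 and S100a13 being added, beside 73.8% of all genes tested. The median over the members was -1.21. All other scalings tried left the 6 calls in place. On TPM rescaled to protein-coding genes alone, replicate 2 over replicate 1 was 1.86 for S100a8, 1.52 for S100a9 and 1.39 for S100a11. On that scale it was 1.05 for S100a6 and 1.04 for S100a4.

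Among the 638 protein-coding genes with a mean of 100 TPM or more, S100a8 was number 6 from the end that was highest in replicate 2, next to Hist1h2ab, Rps12 and Ifitm6. S100a9 was number 24, next to Rpl26, Lcn2 and Dusp1. S100a11 was number 45, next to Ly6e, Pram1 and Hist1h2bq, and S100a6 was number 200, next to Spi1, Dusp6 and Zyx. Lcn2 (lipocalin 2, a granule protein that binds bacterial iron carriers) was at 2151 TPM in replicate 1 and 4530 TPM in replicate 2. Its log2 ratio was -0.83, as was that of Rpl26, and genes picked for a near ratio match by that choice. Of the 20 protein-coding genes with the highest mean TPM, S100a8, S100a9, Lcn2 and S100a11 were the 4 with the most negative ratio.

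Marker genes of neutrophils and of other cells differed between the libraries as well. S100a8 and S100a9 are themselves 2 of the 11 neutrophil markers on the list. The other 9 were all called higher in replicate 2, and their summed level was 16043 and 25156 TPM, 1.57-fold higher in replicate 2, against 2.29-fold for the sum of S100a8 and S100a9. The sums here and below are in TPM, of which protein-coding genes took 32.8% in replicate 1 and 45.4% in replicate 2. By scaled counts, the median log2 ratio over all 11 neutrophil markers was -0.44. Of the B cell markers, 4 of 5 were called higher in replicate 2, and the summed level of the list was 4.49 and 17.4 TPM. Of the erythroid markers, 4 of 5 were called higher in replicate 2, with sums of 45.3 and 114 TPM. Of the platelet markers, 3 of 4 were called higher in replicate 1 and 1 in replicate 2, with sums of 17.0 and 13.8 TPM. Monocyte and macrophage markers were called higher in replicate 2 in 3 of 5 tested. The part of these cells in the S100 ratios was not tested.

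The transcript make-up of the members was read from both transcript tables. GENCODE lists a single transcript for S100a11 and S100a13 and several for the other 8. By the mean share over both libraries, the same transcript led by both tables in 7 of these 8, and S100a9 was the exception. In replicate 2 alone, kallisto also put S100a8-202 (59.4%) ahead of S100a8-201 and S100a4-202 (51.4%) ahead of S100a4-201. S100a10-201, S100a1-201 and S100a5-201 held over 95% of their gene's TPM by both tables in both libraries.

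S100a9-201 and S100a9-202 share all 339 coding bases and differ only ahead of them. S100a9-202 starts 10 bases further upstream, at chr3:90695721, and its exon 2 begins 3 bases further in, at chr3:90695294 in place of chr3:90695297. RSEM gave S100a9-201 84.5% of the gene's TPM in replicate 1 and 73.9% in replicate 2. Kallisto gave S100a9-202 99.99% in replicate 1 and 100% in replicate 2. The 10 bases at the start and the 3 bases at exon 2 are all that tells the transcripts apart, and the encoded protein is the same.

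S100a8-202 is annotated as a transcript with a retained intron, which begins inside intron 1 and lacks exon 1 and the last 71 bases. RSEM gave it 3.17% and 1.85% of the TPM of S100a8, from 2447 and 3132 counts with posterior SDs of 54.7 and 57.6 counts. Kallisto gave it 27.1% in replicate 1 and 59.4% in replicate 2. In kallisto counts, the coding S100a8-201 held 55027 in replicate 1 and 63417 in replicate 2, while S100a8-202 held 21436 and 97269. By RSEM, S100a8-201 held 72497 and 161010 counts. The tables thus placed the excess of S100a8 in replicate 2 on different transcripts, although the gene's total counts were close (160686 by kallisto and 164142 by RSEM in replicate 2).

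**Figure D3:**
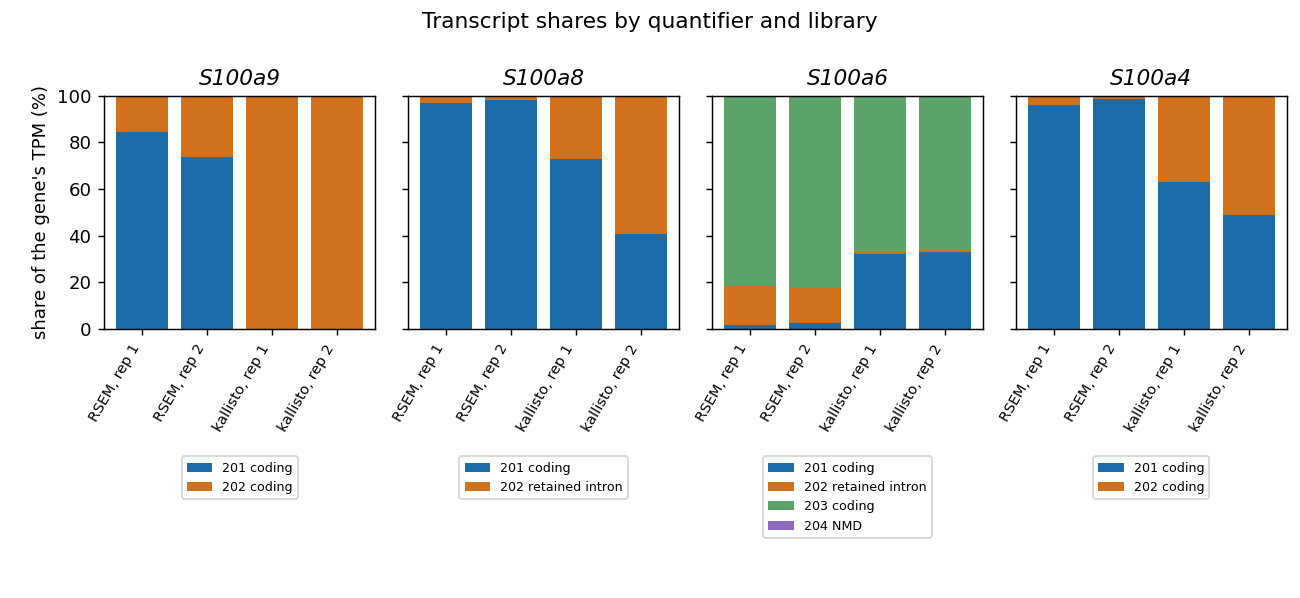
Share of each gene's TPM held by its annotated transcripts for S100a9, S100a8, S100a6 and S100a4, as stacked bars from 0 to 100% for RSEM and kallisto in each library (rep 1 and rep 2, with NMD for a transcript annotated for nonsense-mediated decay). The bars of S100a9 turn from mainly transcript 201 by RSEM to transcript 202 by kallisto, and the retained-intron transcript of S100a8 reaches 59.4% by kallisto in replicate 2.

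S100a6-203, a coding transcript of 464 bases, led S100a6 with 81.4% and 82.3% by RSEM and with 67.0% and 66.0% by kallisto. The rest went to S100a6-202, a retained-intron transcript, by RSEM (17.0% and 15.0%) and to S100a6-201, a coding transcript with another first exon, by kallisto (32.3% and 33.0%). S100a4-201 held 96.0% and 98.7% of S100a4 by RSEM but 62.9% and 48.6% by kallisto, with the remainder on S100a4-202, which lacks exon 1. S100a3-201 held 100% and 99.1% of S100a3 by RSEM and 46.8% and 61.6% by kallisto, from few counts by either table. Shares of single transcripts are therefore given as each table's estimate, with no order claimed between the transcripts of S100a9, S100a8 or S100a4.

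Gene totals depended less on the table than transcript shares did. Of the 9 members with a mean of 1 TPM or more, 0 were over 2-fold apart between kallisto and RSEM in the same direction in both libraries, beside 4.19% of protein-coding genes. The levels of S100a4 were 99.0 and 157 TPM by kallisto.

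Reads that fit several genes touch S100a11, S100a4 and S100a3. S100a11 was the 1 member with counts that were not whole to within 0.01. It shares runs of 50 bases with 3 processed pseudogenes, of which Gm12854 held 42.7 and 43.5 expected counts by RSEM and 0 by kallisto, small beside the 8360 and 13652 counts of S100a11. A predicted coding gene, Gm42674, overlaps 302 of the 584 exon bases of S100a4 and 144 exon bases of S100a3 on the same strand. RSEM left Gm42674 at 0 counts, and kallisto gave it 17.0 and 49.9 TPM. In kallisto counts Gm42674 held 106 in replicate 1 and 223 in replicate 2, beside 599 and 630 for S100a4. The part of these reads in the loss of the S100a4 call by kallisto was not tested. Over its 5 annotated transcripts and on both strands, S100a3 also has runs of 50 bases in common with 134 other genes. How many of these runs lie in S100a3-201, which led by both tables, was not examined. The low level of S100a3, from 38 and 37 counts, remains uncertain.

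Of the protein-coding genes in their region, only members of the 10 reached 1 TPM in both libraries. Between S100a1 and S100a10 (chr3:90511034-93564643, 3054 kb), GENCODE places 75 protein-coding genes, of which 65 are not among the 10. Of those 65, 0 reached 1 TPM in both libraries, and 58 had 0 counts in both, which leaves room for up to 3 counts in a library. The 7 with any count were S100a2, S100a7a, S100a14, S100a16, Pglyrp4, Gm9774 and Tchh, and the highest value among them was 1.75 TPM for S100a2 in replicate 2, from 7 counts. By mean TPM, 5 of the 65 lay above S100a5, the lowest member. Of the 46 genes of other types in the region, 1 reached 1 TPM in both libraries, the processed pseudogene Gm4202 (7.63 and 41.7 TPM), whose mean of 24.7 TPM is above those of S100a13, S100a1, S100a3 and S100a5. Within the block of 8, low and high levels lie close together, since S100a5 starts 4.36 kb from S100a6 and 60.5 kb from S100a8. The 10 were listed with their levels known, so this contrast with their neighbours is a description.

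**Figure D4:**
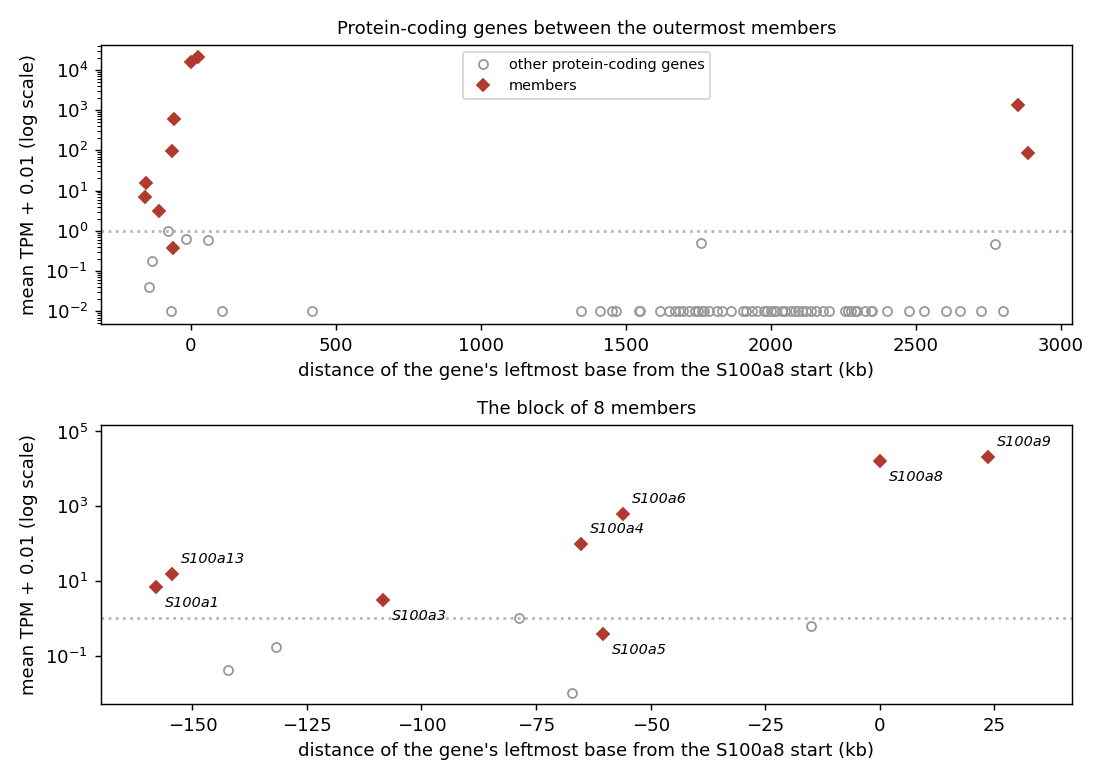
Mean TPM plus 0.01 on a log axis against the distance in kb from the S100a8 start, for the 75 protein-coding genes between S100a1 and S100a10 (top) and for the block of 8 members (bottom). Red diamonds are the 10 S100 genes and grey circles are the other 65, all of which lie below the dotted line at 1 TPM.

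Promoter sequence from RefSeq (GRCm38.p6) covers 9 of 10 members, with none for S100a10. It is shown for S100a8 and S100a9, the highest genes and those that differed most between the libraries. TATAAA, the TATA box, was searched on both strands and occurs in a window of 4 of these 9 members, beside 13.6% of 32817 windows of the same length over all genes. S100a3 has several windows, which raises its odds of a match. The matches of S100a8 and S100a9 are shown in capitals, with 12 bases on either side.
S100a8, chr3:90669029-90669058, plus strand: caagctttcctcTATAAAagcagctgacac
S100a9, chr3:90695704-90695733, minus strand: caaggagctgccTATAAAtactgggcttac
The match of S100a8 begins 30 bases ahead of the RefSeq start, while the GENCODE start lies 93 bases upstream of the RefSeq one. The match of S100a9 begins at the annotated start itself, within the 10 bases that only S100a9-202 holds.

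Further upstream, TTGCNNAA (a site of C/EBP factors), GAGGAAG (a core of PU.1 sites) and GGGCGG (a GC box) were searched on both strands. These motifs occur in a window of 1, 2 and 3 of the 9 members, beside 10.8%, 13.6% and 35.6% of all windows. The stretches ahead of the GENCODE starts, which are shorter than a window, follow with each match in capitals. That of S100a8 reads CTTCCTC, which is GAGGAAG on the other strand. The matches of S100a9 are TTGCNNAA and GGGCGG.
S100a8, chr3:90668821-90668977, plus strand: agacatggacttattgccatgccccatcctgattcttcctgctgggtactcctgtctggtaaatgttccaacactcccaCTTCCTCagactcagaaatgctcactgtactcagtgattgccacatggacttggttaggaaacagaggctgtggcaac
S100a9, chr3:90695722-90695971, minus strand: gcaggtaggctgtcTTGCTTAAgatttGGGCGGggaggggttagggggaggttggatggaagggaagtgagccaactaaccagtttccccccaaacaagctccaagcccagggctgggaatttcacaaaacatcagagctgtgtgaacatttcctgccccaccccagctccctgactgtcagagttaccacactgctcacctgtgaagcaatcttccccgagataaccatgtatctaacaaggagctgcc
A match is a description of letters in the reference genome, and binding was not measured here.

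Other genes of the S100 pathways were read from fixed lists. Of the transcription factors linked to myeloid S100 genes, 10 of 10 were at 1 TPM or more in both libraries, led by Cebpb (205 and 261 TPM), Spi1, which encodes PU.1 (156 and 252 TPM), Stat3 (155 and 170 TPM) and Atf3 (94.0 and 186 TPM). Of these 10, 7 were higher in replicate 2 and 3 were not called, with a median log2 ratio of -0.22.

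Receptors of released S100a8 and S100a9 were at 1 TPM or more in both libraries in 8 of 9 cases. The integrin chains Itgam (325 and 416 TPM) and Itgb2 (296 and 395 TPM) led the list, followed by Emb (83.1 and 114 TPM), a receptor of S100A9, and Cd14 (58.3 and 71.8 TPM). Lower on the list, Tlr4 was at 8.24 and 11.4 TPM and Ager at 2.64 and 2.32 TPM, so ligand mRNA exceeded mRNA of these receptors by a wide margin per length. In this list 5 of 9 were higher in replicate 2 and 4 were not called.

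The NADPH oxidase, to whose cytosolic subunits calprotectin delivers arachidonic acid, was measured through the genes on its list. Ncf1 was at 471 and 717 TPM, Rac2 at 395 and 746 TPM and Cybb at 363 and 511 TPM, and each of these values was higher in replicate 2.

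Most genes on the list of annexins and other partners of S100 proteins were present. Of 13 such genes, 12 reached 1 TPM in both libraries and Plat had 0 counts in both. Anxa1, the annexin partner of S100a11, was at 980 and 1600 TPM, close to S100a11 at 932 and 1788 TPM. Anxa2, the partner of S100a10, was at 244 and 386 TPM, above S100a10 in both libraries. Myh9, the myosin partner of S100a4, was at 601 and 720 TPM and Plaur at 463 and 526 TPM. Of the 12 tested, 4 were higher in replicate 2, 2 were higher in replicate 1 and 6 were not called. The release partners of S100a13 were below 1 TPM in both libraries in 3 of 3 cases, with Il1a at 0.68 and 0.75 TPM and Fgf1 and Syt1 at 0 counts.

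The rest of the S100 family was near the floor. Of 8 further S100-named genes found, S100pbp, which encodes a binding protein of S100 proteins and not a member of the fold, was the 1 at 1 TPM or more in both libraries (2.13 and 3.03 TPM), and S100b, S100g and S100z had 0 counts in both. Of 7 genes that fuse an S100 domain to a long repeat, 0 reached 1 TPM and 6 had 0 counts, with Tchh at 0.490 and 0.440 TPM.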

How the data were processed

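Total RNA-seq of 1 group (2 libraries) was analysed, and the members and lists were chosen with earlier results of these data known. Per the files' accompanying notes, the authors derived the deposited expected counts, TPM and FPKM of the RSEM-layout tables from alignments to the transcriptome (mm10, GENCODE M21), and the estimated counts and TPM of the kallisto-layout table from the reads. No aligner or version is given in the sources used here. Expected counts were rounded, scaled by TMM (edgeR 4.0.16) and compared by an exact binomial test (SciPy 1.17.1, Benjamini-Hochberg, called at 0.05). The test was run on simulated counts with counting error only, which checks its calculation and not its behaviour on these libraries. Median-of-ratios factors came from DESeq2 1.42.0. Log2 ratios had 0.5 added to each count, and intervals are exact at 95%. Intervals cover counting error only, as reads lacking molecular identifiers are not independent. In each list the 4 highest genes by mean TPM with at least 1 TPM were named, and genes named outside that rule were chosen after their values were seen. Some genes of these lists are not reported here. Likeness was the distance in log2 ratio. Motifs were chosen with the levels known. Loops came from translated GENCODE coding exons, aligned with BLOSUM62 in Biopython 1.88. Alternatives covered the quantifier, unit, scaling, filters, added counts and leaving out a library.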

Additional observations from a re-analysis of the deposited data

How the results depend on the processing

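Of 214 recomputed values, 185 kept their direction and side of the threshold, moved by less than the spread between libraries or, as counts, changed by a limited factor. Of the others, 24 moved by more than that, 10 of them levels rescaled to protein-coding TPM, 5 of them transcript shares given with the transcripts in the results. The 185 overstate how stable the results are. A mean of 2 libraries always moves by less than its SD when 1 is left out, so those values could not fail. Counts taken as kept include 8 members called with ERCC scaling against 6 with TMM. The mean level of S100a13 was 16.8 by kallisto TPM and by FPKM, that of S100a3 was 3.83 by kallisto TPM and 3.32 by FPKM, and that of S100a4 was 128 by kallisto TPM. In the comparison of the libraries, ERCC scaling gave 11163 genes higher in replicate 2 and 187 higher in replicate 1 (2577 and 2273 with TMM). Higher calls thus made up 98.4% of all calls in place of 53.1%. ERCC scaling also turned the sign of S100a13 to -0.60 and of S100a3 to -0.69, and kallisto counts turned S100a13 to -0.049. The members' share of protein-coding counts was 2.16%, against 9.49% of TPM, since counts carry no correction for length. The log2 ratio of S100a9 over S100a8 was 0.037 by kallisto. By leaving out a library in turn the share ranged from 7.22% to 11.8%, the log2 ratio of S100a9 over S100a8 from 0.28 to 0.57, and 9 members stood at 1 TPM or more each time. At a threshold of 5 TPM 8 members remained. The leading transcript by kallisto was the same by RSEM in 9 of 10 members, and without replicate 1 in 8 of 10, with S100a8-202 leading S100a8 and S100a4-202 leading S100a4. Leaving out a library was not possible in the comparison of the libraries, where each side is 1 library. No paired analysis was possible because there is 1 group. With 5 counts in all, S100a5 was too shallow to test.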

Other observations

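Other EF-hand proteins outside the S100 family were present throughout. All 15 on the list reached 1 TPM in both libraries, with Lcp1, the actin-bundling plastin of leukocytes (490 and 686 TPM), as the highest. Sri, which encodes sorcin, was at 136 and 171 TPM. In this list 9 genes were higher in replicate 2, 1 was higher in replicate 1 (Stim1, the calcium sensor of the endoplasmic reticulum, with a log2 ratio of 0.25) and 5 were not called, with a median log2 ratio of -0.17 beside -0.47 over the 9 S100 genes.

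Markers of other cell states were read in the same libraries. The primary granule genes of immature neutrophils were at 1 TPM or more in 5 of 5 cases, led by Mpo (193 and 264 TPM), and all 5 markers of cycling cells were as well, led by Top2a (87.6 and 97.5 TPM). The basophil and mast cell list was at 1 TPM or more in 4 of 4 cases, led by Prss34 (30.0 and 35.3 TPM). The eosinophil, dendritic cell, and endothelium and stroma lists had 2 of 5 markers each at that level, with Col1a1 at 59.3 and 61.1 TPM.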
